A study of Homo sapiens with 12 samples.

Results

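Transcripts of 9 keratin genes and of SCEL, the gene of sciellin, were followed in HK-2 cells exposed to Aa. The genes had been listed by name (KRT7, KRT8, KRT18, KRT19, KRT20, KRT17, KRT15, KRT80, KRT81 and SCEL), and a gene was read from the probe sets annotated to it alone. Of the 10 genes 8 had such a probe set, 15 probe sets in all of 54675 on the array, and each gene was represented by whichever of its probe sets averaged highest across the 12 arrays. KRT17 and KRT81 had none in the annotation used and were not analysed here. All 8 genes were over log2 4, the level taken as background, on at least 3 of the 12 arrays and were tested among 11184 genes, out of 19775 on the array.

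HK-2 is an immortalised line of epithelial cells from the human proximal tubule, so all samples come from a single line. The cells were grown in a medium with EGF, hydrocortisone, insulin, transferrin and selenium, and were exposed near confluence to a compound labelled Aa at high dose, or to vehicle alone, and were collected after 24 h or after 48 h. Each of the 4 groups (control and Aa at 24 h, control and Aa at 48 h) held 3 samples labelled biological replicates. What Aa is, its dose and the vehicle are not stated in the labels. RNA was hybridised to 12 Affymetrix arrays, and expression is given in log2 units after GCRMA, the authors' background correction and normalisation.

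Keratins form the intermediate filaments of epithelial cells. An acidic keratin of type I always pairs with a basic keratin of type II, and KRT18 with KRT8 is the first pair made in simple epithelia such as the kidney tubule. KRT7 (type II) and KRT19 (type I) are added in ducts, KRT20 (type I) in intestine and urothelium, and KRT20 is also known from injured tubules. KRT15 (type I) belongs to the basal layer of stratified epithelia, KRT80 (type II) lies near desmosomes and cell edges, and sciellin is a precursor of the cornified envelope, the cross-linked protein shell under the membrane of differentiating squamous cells.

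Replicate arrays within a group had correlations of 0.994 to 0.997 across probe sets. All 5 markers of simple epithelium (CDH1, EPCAM, CLDN1, OCLN and TJP1) were over background, and so was 1 of 7 markers of stratified epithelium with a probe set, KRT10. KRT5, KRT14, KRT1, IVL, LORICRIN and DSG3 were over log2 4 on 0 of 12 arrays. Of 10 proximal tubule markers with a probe set only PAX8 and CDH16 passed, and the defining transporter genes LRP2, CUBN, SLC34A1, SLC5A2, SLC22A6 and AQP1 were over log2 4 on 0 arrays. Of 6 fibroblast markers 3 were over log2 4 on all 12 arrays (DCN, LUM and COL1A1, with control means at 24 h of 12.2, 9.94 and 8.35), 1 of them fell at 24 h, and COL1A2, COL3A1 and PDGFRB were over it on 0. The summed level of these markers on the linear scale ranged from 4910 to 6960 in control and 3690 to 5220 in Aa samples at 24 h, and from 4650 to 5550 and 4160 to 4840 at 48 h. Of 37 other keratin genes with a probe set 36 were over log2 4 on 0 arrays, with a highest value of 3.45. As a check of RNA quality, the mean log2 difference between the 3' and 5' control probe sets for ACTB and GAPDH was 0.306 in control and 0.394 in Aa samples at 24 h. It was 0.319 in control and 0.542 in Aa samples at 48 h. The part of this difference and of the fibroblast markers in the results below was not tested.

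At 24 h 6 of the 8 genes changed with Aa. SCEL, KRT20, KRT19 and KRT18 were lower, and KRT80 and KRT15 were higher, while KRT7 and KRT8 did not pass the test. At 48 h 7 of 8 changed. SCEL, KRT20 and KRT19 were lower, KRT80, KRT7, KRT15 and KRT8 were higher, and KRT18 did not pass. The criterion for passing was an adjusted p below 0.05 in limma, by the Benjamini-Hochberg method over all 11184 tested genes and with all 12 arrays in the fit; every adjusted p given here is from that fit. Among all tested genes 49.1% passed at 24 h (26.3% up, 22.8% down) and 64.5% at 48 h (30.6% up, 33.9% down), so 6 and 7 of 8 stand against a large background. Control and Aa values did not overlap for 6 of 8 genes at 24 h (59.8% of all tested genes, 30.8% up and 29.0% down) and for 7 of 8 at 48 h (69.1%, 33.0% up and 36.1% down). The 5 genes SCEL, KRT20, KRT19, KRT15 and KRT80 passed in the same direction at both times, as did 39.2% of all tested genes. The controls of the 2 times are separate samples.

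**Figure D1:**
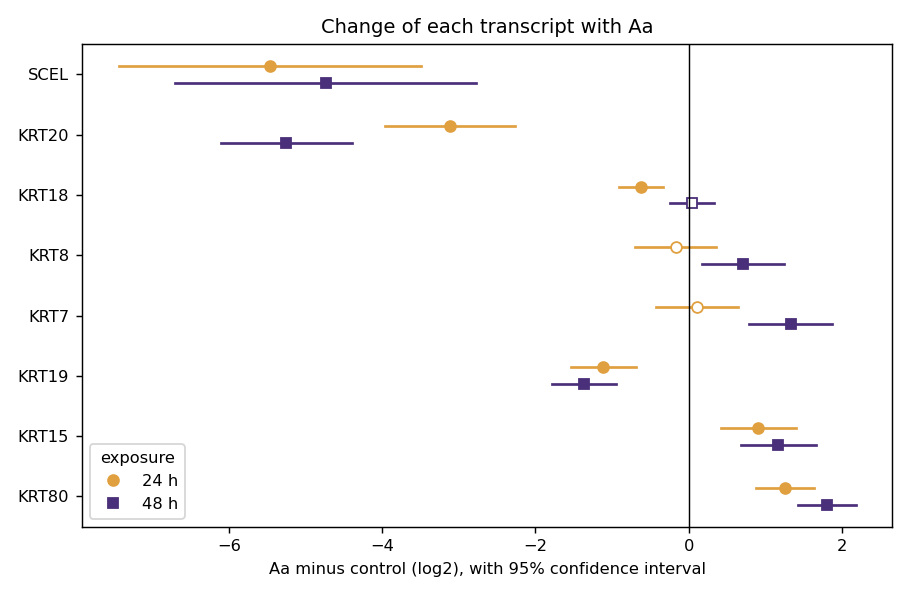
Log2 change with Aa (horizontal axis, Aa minus control) of each of the 8 transcripts at 24 h (circles) and 48 h (squares), with 95% confidence intervals from limma as lines. Filled symbols passed at an adjusted p under 0.05; SCEL and KRT20 lie far to the left at both times, and KRT7, KRT8 and KRT18 lie further right at 48 h than at 24 h.

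SCEL was high in control cells and low in Aa-treated cells. Its values in control cells at 24 h were 10.42, 10.999 and 9.93, against 4.66, 5.85 and 4.42 with Aa. At 48 h control values were 9.95, 10.31 and 9.63, against 7.85, 4.44 and 3.39 with Aa. The groups did not overlap at either time, and replicate 1 of Aa at 48 h stood well above the other 2 Aa samples of that time. The log2 change was -5.47 at 24 h (SE 0.893, adjusted p = 0.000458), a 44.4-fold fall. At 48 h it was -4.74 (SE 0.893, adjusted p = 0.000758), and SCEL was at least 23.2-fold lower, since 1 Aa array lay under log2 4 and entered this fold at that level. The SE is the same at both times because the fit shares a single spread across the 4 groups. Group SDs were 0.535 in control and 0.766 in Aa samples at 24 h, and 0.341 and 2.33 at 48 h. The SE and p at 24 h thus take in the wide spread of Aa at 48 h. Without replicate 1 of Aa at 48 h the change at 48 h was -6.05 (adjusted p = 3.26e-06). In bulk RNA, fewer cells that make a transcript and less of it per cell cannot be told apart.

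Of the other 3 SCEL probe sets 2 exceeded log2 4 in all control samples. Their Aa values at 24 h were 3.69, 4.30 and 3.36 in the first and 2.99, 3.99 and 3.80 in the second, so 5 of 6 lay under log2 4. They read at least 33.6-fold and at least 20.6-fold lower with Aa at 24 h, and at least 14.9-fold and at least 12.2-fold lower at 48 h. In both, replicate 1 of Aa at 48 h was again the highest of its group, with 5.91 and 5.70. The other Aa values at 48 h were 4.04 and 3.51 in the first and 3.23 and 3.16 in the second, 3 of them under log2 4. The last probe set stayed between 3.14 and 3.73 on all 12 arrays, near background, and says nothing about the gene.

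**Figure D2:**
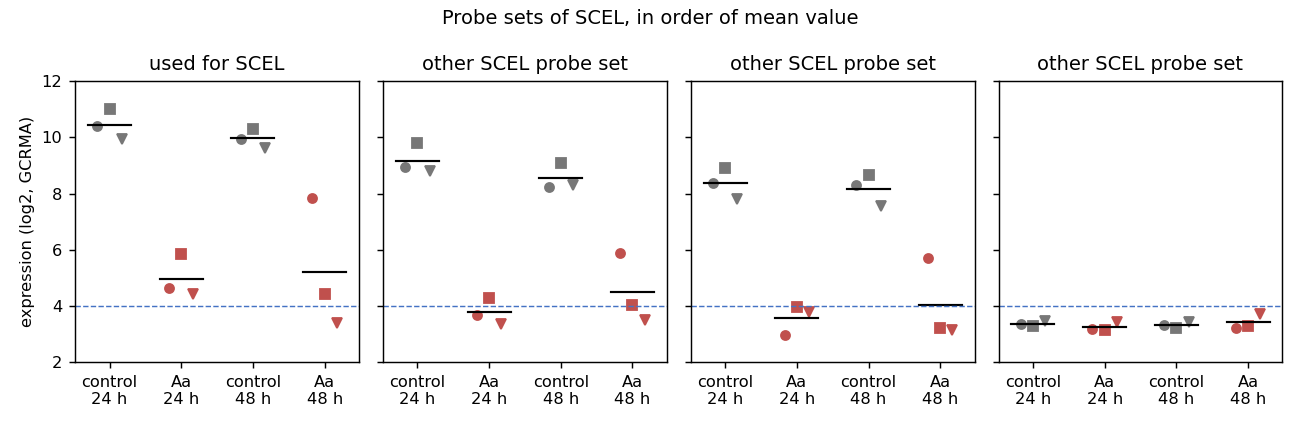
Log2 expression (vertical axis) of the 4 SCEL probe sets in the 4 groups, with control samples in grey and Aa samples in red. Circles, squares and triangles are replicates 1, 2 and 3, black bars are group means and the dashed line is log2 4; the circle of Aa at 48 h lies above its group in the first 3 probe sets, at 7.85, 5.91 and 5.70.

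KRT20 fell from a level that itself differed between the control times. Control cells had 6.25, 7.44 and 6.26 at 24 h and 8.39, 9.10 and 8.43 at 48 h. Aa-treated cells had 2.86, 3.61 and 4.14 at 24 h and 3.05, 3.77 and 3.37 at 48 h, so 5 of the 6 Aa arrays lay under log2 4. KRT20 was at least 6.07-fold lower at 24 h (fitted log2 change -3.11, SE 0.388, adjusted p = 7.11e-05) and at least 25.0-fold lower at 48 h (fitted -5.25, SE 0.388, adjusted p = 9.07e-07). The control cells were 3.98-fold higher at 48 h than at 24 h, with no overlap, at an adjusted p of 0.0514 (0.00505 with the replicate number as a block). The Aa groups overlapped between the times, and both were near background. The fitted change was larger in size at 48 h, with a difference of -2.14 (SE 0.548, adjusted p = 0.0231), with Aa values at or near background at both times. The difference no longer passed when replicate 2 of Aa at 24 h, replicate 1 or 3 of control at 24 h or replicate 2 of control at 48 h was left out, or without the expression filter, with adjusted p of 0.0526 to 0.0589.

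The start regions of SCEL and KRT20, the genes with the largest falls, are shown here to set the fall beside the sequence. RefSeq's promoter table (GRCh38.p14), which holds 250 bases before and 50 after each start, had an entry for 3 of the 10 genes (SCEL, KRT20 and KRT8). The SCEL region is chr13:77535456-77535755 on the plus strand and that of KRT20 is chr17:40885193-40885492 on the minus strand. Both are read 5′ to 3′, and capitals mark matches to the motifs searched on both strands, the AP-1 site TGANTCA, the TATA box TATAAA, the CCAAT box CCAAT and the GC box GGGCGG.
SCEL: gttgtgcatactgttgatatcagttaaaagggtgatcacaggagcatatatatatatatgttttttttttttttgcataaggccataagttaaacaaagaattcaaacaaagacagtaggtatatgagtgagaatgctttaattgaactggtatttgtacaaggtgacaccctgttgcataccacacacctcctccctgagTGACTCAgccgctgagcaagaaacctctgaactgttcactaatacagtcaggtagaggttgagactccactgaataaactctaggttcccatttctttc
KRT20: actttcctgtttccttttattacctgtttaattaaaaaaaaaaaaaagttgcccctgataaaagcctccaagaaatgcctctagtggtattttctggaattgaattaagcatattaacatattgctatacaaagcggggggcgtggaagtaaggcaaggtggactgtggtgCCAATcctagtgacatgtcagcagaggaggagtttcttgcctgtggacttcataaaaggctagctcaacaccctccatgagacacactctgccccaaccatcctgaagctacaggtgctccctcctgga
The SCEL region held 1 match, an AP-1 letter sequence TGACTCA that begins at -49 from the start, and matches of this kind were in 7.71% of all 35116 regions of the table. The KRT20 region held 1 match, a CCAAT box at -79, found in 34.6% of all regions. The TATA box letters, present in 11.5% of regions, and the GC box letters, in 45.0%, were in neither. The KRT8 entry held no match to any of the 4 motifs. A match is a string of letters in this window and not a measured binding site.

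KRT18 and KRT8, the primary pair of simple epithelia, moved by at most 1.63-fold. KRT18, the type I partner, had values of 13.44, 13.29 and 13.36 in control cells at 24 h against 12.85, 12.66 and 12.72 with Aa. These groups did not overlap, and the fall was 1.54-fold (log2 change -0.62, SE 0.129, adjusted p = 0.00224). At 48 h control cells had 12.75, 12.56 and 13.06 and Aa cells 12.97, 12.76 and 12.76, which overlapped. The change at 48 h was 0.04 (SE 0.129, 95% confidence interval -0.244 to 0.327, adjusted p = 0.796), and it was -0.40 (adjusted p = 0.0443) when arrays were scaled to the hybridisation controls.

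The 2 effects on KRT18 differed by 0.66 (SE 0.183, adjusted p = 0.0301). The control level was lower at 48 h than at 24 h by 0.57 with no overlap (adjusted p = 0.0692, and 0.0128 with the replicate block), while the Aa level moved by 0.09 between the times (adjusted p = 0.658). The difference of the effects did not pass with hybridisation-control scaling (adjusted p = 0.15), nor when any of 7 single arrays was left out: replicates 2 and 3 of Aa at 24 h, replicate 1 of Aa at 48 h, replicates 1 and 3 of control at 24 h, and replicates 1 and 2 of control at 48 h (0.0525 to 0.0706).

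KRT8, the type II partner, had 12.62, 12.20 and 12.37 in control cells and 12.54, 11.88 and 12.26 in Aa cells at 24 h. These values overlapped, with a log2 change of -0.17 (SE 0.240, 95% confidence interval -0.700 to 0.361, adjusted p = 0.593). At 48 h the control values of 12.02, 11.32 and 12.09 all lay below the Aa values of 12.76, 12.18 and 12.61. The rise was 1.63-fold (log2 change 0.71, SE 0.240, adjusted p = 0.0237, and 0.000262 with the replicate block). It did not pass with hybridisation-control scaling (0.26, adjusted p = 0.401), without the expression filter (adjusted p = 0.0573), or without replicate 1 or 3 of Aa or replicate 2 of control at 48 h (0.0836, 0.0665 and 0.0982). The difference between the times was 0.87 (SE 0.340, adjusted p = 0.0922, and 0.0028 with the replicate block). Between the control times KRT8 was lower at 48 h by 0.59 without overlap (adjusted p = 0.249, and 0.0113 with the replicate block). KRT8 and KRT18 neighbour each other on chromosome 12 in RefSeq's gene table, with 0 protein-coding genes between their starts. Each was read by a single probe set of the _x_at type, whose probes can also bind near-identical transcripts, and both genes have many processed copies in the genome, so their values may include signal from such copies.

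KRT7 and KRT19, the keratins of ducts, went in opposite directions at 48 h. KRT7 had 8.05, 7.86 and 8.38 in control cells at 24 h and 8.48, 7.76 and 8.36 with Aa, with overlap and a change of 0.11 (SE 0.243, 95% confidence interval -0.430 to 0.643, adjusted p = 0.745). At 48 h control cells had 7.29, 7.66 and 7.99 and Aa cells 9.17, 8.62 and 9.13, without overlap. The rise was 2.52-fold (log2 change 1.33, SE 0.243, adjusted p = 0.000613). KRT7 was the only 1 of the 8 genes that passed between the Aa times, with a rise of 0.77 from 24 h to 48 h (SE 0.243, adjusted p = 0.0354; background 29.2% of tested genes, 9.65% up and 19.5% down). Its Aa values also did not overlap between the times, as for 42.6% of tested genes (15.7% up, 26.9% down). This rise between the Aa times passed with the replicate block (adjusted p = 0.00868) but not with hybridisation-control scaling (0.30, adjusted p = 0.308). The other 3 KRT7 probe sets did not exceed log2 4 on any array and give no check.

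The difference between the 2 effects on KRT7 was 1.22 (SE 0.344, adjusted p = 0.032). Its adjusted p was 0.0578 with hybridisation-control scaling, 0.0714 without the expression filter, and 0.0565 to 0.0782 when any of 7 single arrays was left out (replicate 2 of Aa at 24 h, replicates 1 and 3 of Aa at 48 h, replicates 1 and 3 of control at 24 h, replicates 1 and 2 of control at 48 h). The rise between the Aa times in turn did not pass without replicate 2 or 3 of Aa at 24 h or without replicate 1 or 3 of Aa at 48 h (0.0516 to 0.128).

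KRT19 was lower with Aa at both times. It had 12.55, 12.56 and 12.74 in control cells and 11.57, 11.27 and 11.67 in Aa cells at 24 h. At 48 h it had 12.40, 12.26 and 12.92 in control cells and 11.37, 10.84 and 11.27 in Aa cells. No Aa value reached a control value of the same time. The falls were 2.16-fold (log2 change -1.11, SE 0.192, adjusted p = 0.000678) and 2.58-fold (log2 change -1.37, SE 0.192, adjusted p = 9.48e-05). They differed between the times by -0.26 (SE 0.272, 95% confidence interval -0.856 to 0.345, adjusted p = 0.538). The other KRT19 probe set lay under log2 4 on all arrays.

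KRT15 and KRT80, keratins linked to stratified or squamous epithelia, were higher with Aa at both times. KRT15 had 5.18, 5.07 and 5.09 in control cells and 5.43, 6.39 and 6.25 in Aa cells at 24 h. At 48 h control cells had 5.18, 5.05 and 5.19 and Aa cells 6.38, 6.53 and 6.02. The 6 control values spanned a narrow range just over background, and every Aa value was above them. The rises were 1.88-fold (log2 change 0.91, SE 0.221, adjusted p = 0.00555) and 2.25-fold (1.17, SE 0.221, adjusted p = 0.000766). KRT15 and KRT19 are neighbours on chromosome 17 with 0 protein-coding genes between them, and KRT15 rose where KRT19 fell.

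KRT80 had 8.84, 8.58 and 9.12 in control cells and 10.39, 9.87 and 10.07 in Aa cells at 24 h. At 48 h it had 8.53, 8.26 and 8.69 in control cells and 10.23, 10.28 and 10.38 in Aa cells. All 6 Aa values exceeded all 6 control values. The rises were 2.40-fold (log2 change 1.26, SE 0.171, adjusted p = 0.000127) and 3.50-fold (1.81, SE 0.171, adjusted p = 5.29e-06). Their difference of 0.54 did not pass (SE 0.242, adjusted p = 0.135), but did with the replicate block (adjusted p = 0.0406). KRT80 and KRT7 are also neighbours on chromosome 12 with 0 protein-coding genes between them; KRT80 rose at both times and KRT7 at 48 h. KRT20, KRT15, KRT80, KRT8 and KRT18 had a single probe set each.

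**Figure D3:**
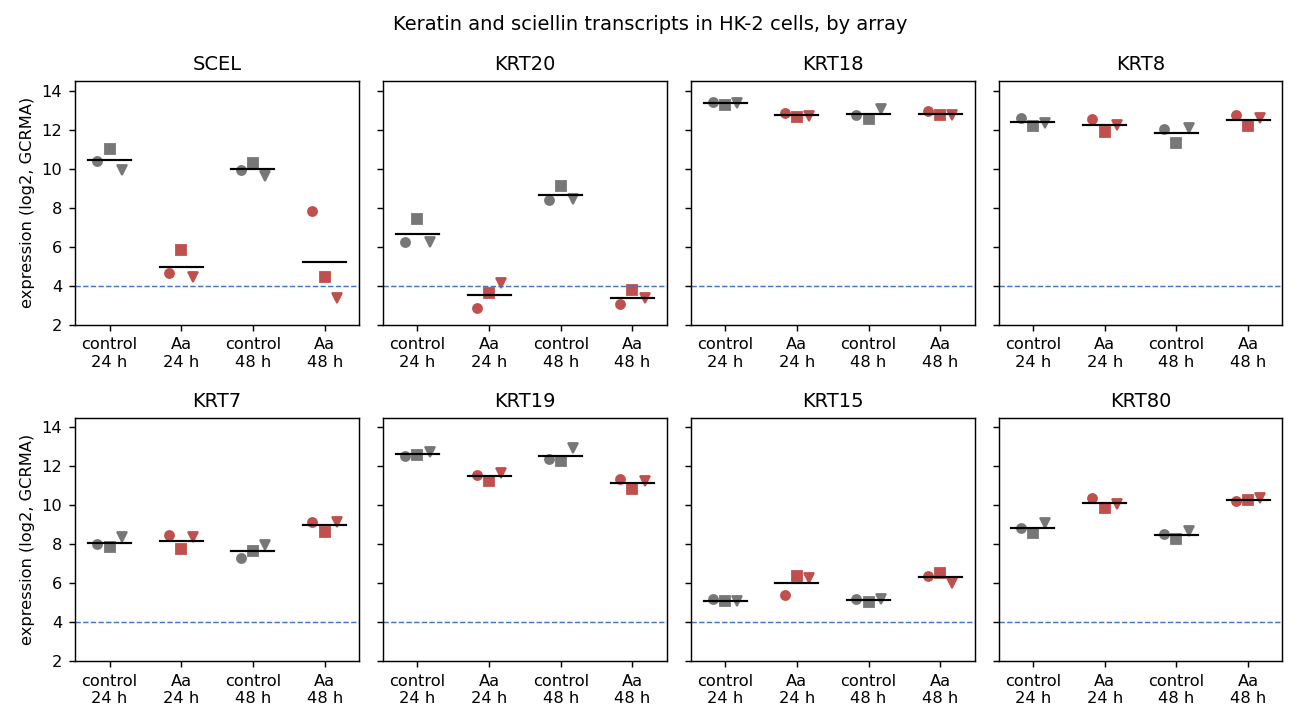
Log2 expression (vertical axis) of the 8 transcripts on each of the 12 arrays, by group on the horizontal axis, with control samples in grey and Aa samples in red. Circles, squares and triangles are replicates 1, 2 and 3, black bars are group means and the dashed line is log2 4; the control and Aa values of SCEL, KRT20, KRT19, KRT15 and KRT80 do not overlap at either time.

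Between 24 h and 48 h in control cells 0 of the 8 genes passed in limma, with 3 (KRT8, KRT18 and KRT20) at an unadjusted p under 0.05, as for 17.1% of all tested genes, and without overlap between the times. The background was 0.635% of tested genes passing (0.277% up, 0.358% down) and 22.6% not overlapping (10.9% up, 11.8% down). With the replicate block these 3 genes passed, as given above, and the count over all genes went from 71 to 1669. For the difference between the 2 effects of Aa 3 of 8 passed, KRT7 and KRT18 with a positive difference (6.80% of all tested genes) and KRT20 with a negative one (12.7%), against 19.5% of all tested genes; with the block KRT8 and KRT80 passed as well, and the count over all genes went from 2179 to 4314. The SCEL effects differed by 0.73 (SE 1.26, 95% confidence interval -2.05 to 3.52, adjusted p = 0.717) and those of KRT15 by 0.26 (SE 0.312, adjusted p = 0.589).

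Samples with the same replicate number shared part of their spread in these genes. Replicate 2 was the lowest of its group for KRT8 in 4 of 4 groups and for KRT7, KRT18, KRT19 and KRT80 in 3 of 4. For SCEL and KRT20 replicate 2 was instead the highest in 3 of 4 groups. KRT20 was lowest in replicate 1 in all 4 groups and SCEL was lowest in replicate 3 in all 4.

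Few listed genes of the cornified envelope other than SCEL were over background. IVL, LORICRIN, FLG and TGM1 were among those over log2 4 on 0 arrays. Of 22 listed envelope genes with a probe set 7 were tested, and at 24 h 0 rose and 1 fell by limma, the plakin gene PPL, which encodes periplakin, a linker of envelope and filaments; it was also the only 1 at an unadjusted p under 0.05. PPL fell by 1.24 (adjusted p = 0.00104) at 24 h and by 2.29 (adjusted p = 7.91e-06) at 48 h on the log2 scale. At 48 h 4 rose and 1 fell. With hybridisation-control scaling 3 fell at 24 h, and at 48 h 2 rose and 3 fell. With the mean of probe sets 2 fell at 24 h. Over all tested genes 26.3% rose and 22.8% fell at 24 h, and 30.6% rose and 33.9% fell at 48 h. A fall in 1 of 7 genes is therefore not set apart from the background. EVPL, the gene of envoplakin and the usual partner of periplakin, had a change of 0.20 at 24 h (adjusted p = 0.564) and rose by 1.42 at 48 h (adjusted p = 0.000816). The other genes that rose at 48 h were TGM2, which encodes a cross-linking transglutaminase (0.80), the annexin gene ANXA1 (1.01) and S100A11 (0.57). The rises of TGM2 and S100A11 did not pass with hybridisation-control scaling (adjusted p = 0.138 and 0.567), nor that of TGM2 with the mean of probe sets (0.34). The list median was 0.157 at 24 h and 0.572 at 48 h, against 0.0231 and -0.0254 over all tested genes. The first of these medians was -0.126 with hybridisation-control scaling, -0.114 with the mean of probe sets and -0.0567 without replicate 1 of Aa at 24 h; the second was 0.131 with hybridisation-control scaling.

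Among anchors of keratin filaments and desmosome genes 12 of 18 were tested, and 0 rose and 4 fell at 24 h while 2 rose and 4 fell at 48 h. The shares over all tested genes were 26.3% up and 22.8% down at 24 h, and 30.6% up and 33.9% down at 48 h. PKP4, a plakophilin gene, fell by 0.64 (adjusted p = 0.0398) and 1.60 (adjusted p = 0.000118). The fall at 24 h did not pass with equal array medians (adjusted p = 0.0615), without the filter (0.0903) or without replicate 1 or 3 of Aa or 1 or 2 of control (0.0787 to 0.141). With equal array medians, without the filter or without replicate 1 of control, 1 gene of the list fell at 24 h, and 2 fell without replicate 2 or 3 of Aa or replicate 2 of control. The count that rose was 1 with the replicate block or the mean of probe sets. The plakophilin gene PKP2 was at least 1.34-fold lower at 24 h and at least 1.35-fold lower at 48 h, with all 6 Aa arrays under log2 4 (adjusted p = 0.00497 and 0.00273, the second 0.103 with a floor at log2 4). DSP, which encodes desmoplakin, the link from desmosome to keratin, had a change of 0.15 (adjusted p = 0.623) at 24 h. It rose by 0.85 at 48 h (adjusted p = 0.00749, and 0.000706 with the replicate block). The rise did not pass with hybridisation-control scaling (0.41, adjusted p = 0.123), with which 0 genes of the list rose and 7 fell at 48 h; 7 also fell at 24 h. PLEC, the gene of the linker plectin, had a change of 0.67 at 24 h (adjusted p = 0.245, and 0.000437 with the replicate block) and rose by 1.43 at 48 h (adjusted p = 0.0172). That rise did not pass with hybridisation-control scaling (0.074), without the filter (0.0504) or without replicate 1 or 3 of Aa or replicate 2 of control at 48 h (0.0592 to 0.0738); without the filter or any of these 3 arrays 1 gene of the list rose. The list median was -0.131 and -0.216, and -0.414 and -0.656 with hybridisation-control scaling.

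Of 15 genes of other intermediate filaments 12 were tested, with 3 up and 1 down at 24 h and 7 up and 2 down at 48 h; over all tested genes 49.1% and 64.5% passed. With hybridisation-control scaling 1 was up and 2 down at 24 h and 4 were up at 48 h. At 24 h 3 were down with the replicate block, 2 were down with the 2 groups alone or without replicate 3 of control, and 1 was up without replicate 1 of control. At 48 h 4 were up without replicate 1 of Aa. VIM, which encodes vimentin, the filament of mesenchymal and cultured cells, had a change of -0.20 at 24 h (adjusted p = 0.333) and fell by 0.54 at 48 h (adjusted p = 0.0119). The neurofilament gene NEFH rose by 0.67 at 24 h (adjusted p = 0.0129, and 0.000805 with the replicate block) and by 2.45 at 48 h (adjusted p = 1.24e-06). The rise at 24 h did not pass with hybridisation-control scaling (0.105) or without replicate 1 or 2 of control at 24 h (0.0552 and 0.0506). The peripherin gene PRPH was near background in all but the Aa samples at 48 h, where it was at least 2.91-fold higher. SYNM, which encodes the filament protein synemin, rose by 1.31 (adjusted p = 0.000148) and by 1.40 (adjusted p = 5.24e-05), and the nuclear lamin gene LMNB1 fell by 0.99 (adjusted p = 9.81e-05) and by 1.07 (adjusted p = 3.17e-05). The list median was 0.0288 and 0.746; the first turned to -0.254 with hybridisation-control scaling, -0.0397 with a filter at log2 5 and -0.0198 with a floor at log2 4, and was -0.0803 to -0.0195 without replicate 1 or 3 of Aa or replicate 2 of control at 24 h. The second was 0.305 with hybridisation-control scaling. KRT10, the only other keratin tested, did not pass, with changes of 0.01 (adjusted p = 0.949) and 0.19 (adjusted p = 0.0941). At 48 h it passed with quantile normalisation (0.0438), without the filter (0.049), with the mean of probe sets (0.00813), with the replicate block (0.049) and without replicate 1 of Aa (0.0254), and its change was -0.25 with hybridisation-control scaling (0.103).

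**Figure D4:**
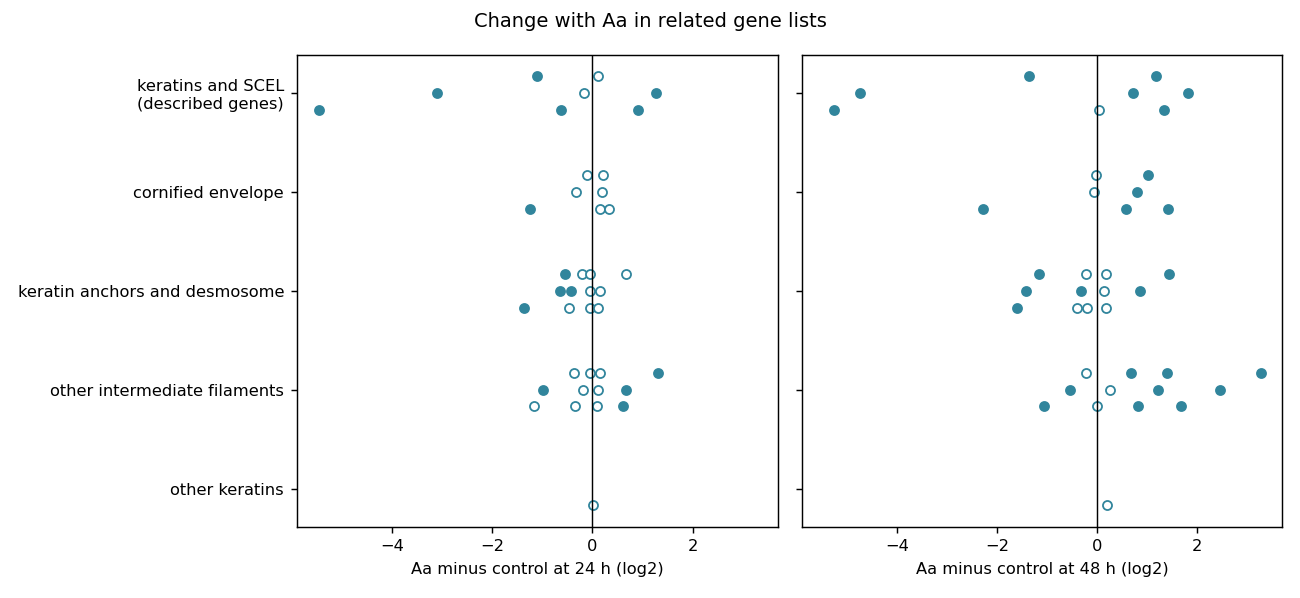
Log2 change with Aa (horizontal axes) at 24 h (left) and 48 h (right) for the 8 described genes and the tested genes of the 4 related lists, 1 point per gene, with filled points for an adjusted p under 0.05. SCEL at 24 h and KRT20 at 48 h are the leftmost points, and the other intermediate filament genes reach furthest right at 48 h.

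Part of the markers of simple epithelium also fell with Aa. The summed level of the 5 simple epithelium markers on the linear scale ranged from 39200 to 42000 in control and from 24000 to 26400 in Aa samples at 24 h, and from 41100 to 42600 and from 20200 to 22500 at 48 h. CLDN1 had the highest mean of the 5 in every group and so weighed most in this sum. Its means were 14.78 in control and 13.82 in Aa samples at 24 h, and 14.75 and 13.39 at 48 h. At 24 h the means were 7.17 and 5.48 for CDH1, 9.19 and 8.77 for OCLN, 13.13 and 12.97 for EPCAM, and 11.31 and 11.26 for TJP1. Of the 5, 2 fell at 24 h and 4 at 48 h, against 22.8% and 33.9% of all tested genes. Stratified epithelium markers summed to 1060 to 1170 in control and 1120 to 1370 in Aa samples over both times. KRT10, which did not pass at either time, was the only marker of that list over log2 4 and made up nearly all of its sum. The part of these markers in the keratin changes was not tested.

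The genes most like each member were taken by Pearson correlation of log2 values over the 12 arrays, as a description of a pattern that the treatment dominates. SCEL was closest to TNIK (r = 0.983) and ABR (0.98), KRT20 to DELE1 (0.983) and CYSTM1 (0.982), and KRT19 to B9D1 (0.981) and SLC25A11 (0.978). KRT80 was closest to PHKG2 and ABCF3 (both 0.994) and KRT15 to PRR18 and SLC35G2 (both 0.941). PRR18 lay under log2 4 in all control samples, and its r with KRT15 was 0.741 with a floor at log2 4 and 0.799 with hybridisation-control scaling. KRT7 was closest to PITRM1 and IGFBP6 (both 0.958), KRT8 to NT5DC2 (0.956) and PPP6R1 (0.955), and KRT18 to TFPI2 (0.969) and HS3ST3A1 (0.936). With the mean of probe sets r was 0.853 for KRT7 with PITRM1 and 0.81 for KRT18 with TFPI2. The mean for KRT7 takes in its probe sets that did not exceed log2 4 on any array. With hybridisation-control scaling r was 0.885 for KRT8 with NT5DC2 and 0.926 for KRT20 with CYSTM1. KRT80 had 1150 genes at r over 0.9 (10.3% of those tested), KRT19 had 747, SCEL 570 and KRT20 556. KRT15 had 87, KRT7 had 79, KRT8 had 21 and KRT18 had 8. KRT7, KRT8 and KRT18, with the fewest, passed at either 24 h or 48 h alone. These counts are therefore not separate from the changes given above.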

How the data were processed

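Expression in 12 samples of HK-2 cells (4 groups of 3, from the labels) was measured on Affymetrix arrays. The authors deposited log2 values from GCRMA, per the submitters' processing notes, which name no version and do not say which arrays were processed together. Array medians were 2.91 to 3.02, under the background level of log2 4. A shift common to most transcripts may not appear in normalised values, and these medians cannot show whether there was 1. Of 54675 probe sets 62 were the manufacturer's controls and 41091 named 1 gene.

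Genes with values over log2 4 on at least 3 arrays entered a model of 4 group means (limma 3.58.1 under R 4.3.3, functions lmFit and eBayes, 8 residual and 2.79 prior degrees of freedom). The method was tested on simulated data with independent samples and few changed genes. That test does not cover the pairing of replicates or the many changes in these arrays. The median SE of a change was 0.161 within a time and 0.227 between times, limited by the number of arrays. Folds with dim arrays under log2 4 took those at log2 4 and are given as at least that size. Replicates are labelled biological with no word on separate cultures, so p-values measure the spread between these samples, which may be technical. Replicate numbers paired the samples: deviations from group means correlated at 0.279 to 0.577 for all 18 same-numbered pairs and at -0.371 to -0.0286 for 36 others. Taking deviations from group means makes the others negative on average when same-numbered pairs are positive, so their sign is not separate support.

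All 10 genes were named, as were the genes of each list that changed most at each time among those passing (at most 2), VIM, DSP, PPL and EVPL, and the 2 genes most correlated with each member. KRT10, TGM2, ANXA1, S100A11, NES, NEFM and TCHP were named after their values were seen. The genes, lists and alternatives were chosen with earlier results of these data known. Alternatives covered scaling, filter, floor, probe set, samples in the fit, replicate block, variance trend and leaving out each array.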

Additional observations from a re-analysis of the deposited data

Results flagged for a closer look

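The effect of Aa differed between 24 h and 48 h, by limma's test of the difference itself, for 3 of the 8 genes and for 9 genes of the related lists. Over all tested genes 19.5% passed this test, 6.80% with a positive and 12.7% with a negative difference. Of 7 tested envelope genes 3 had a positive and 1 a negative difference. The counts were 0 and 1 of 12 anchor and desmosome genes, and 4 and 0 of 12 other filament genes. The difference (48 h change minus 24 h change, log2) was 1.22 for KRT7 (adjusted p = 0.032), 0.66 for KRT18 (adjusted p = 0.0301) and -2.14 for KRT20 (adjusted p = 0.0231). It was -1.05 for PPL (adjusted p = 0.0454) and 1.21 for EVPL (adjusted p = 0.0477), partner plakins of the envelope. It was 3.16 for PRPH (adjusted p = 0.00434), which lay near background in 3 of the 4 groups, and 1.78 for NEFH (adjusted p = 0.00265). It was also 1.12 for TGM2 (adjusted p = 0.0244), 0.82 for ANXA1 (adjusted p = 0.0496), 1.51 for NES, which encodes the filament protein nestin (adjusted p = 0.012), 2.38 for the neurofilament gene NEFM (adjusted p = 0.0345) and -0.73 for TCHP, the gene of the keratin-binding protein trichoplein (adjusted p = 0.0404). With the replicate block all 12 passed (adjusted p from 0.000319 to 0.018). The differences of PPL and EVPL did not pass without the filter (0.096 and 0.105) or, for 9 and 10 of the 12 arrays, with that array left out (0.058 to 0.104 and 0.0518 to 0.107); EVPL also did not with equal array medians (0.0553) or hybridisation-control scaling (0.112). That of PRPH was 1.54 with a floor at log2 4 (adjusted p = 0.0583). Without the filter TGM2, ANXA1, NEFM and TCHP did not pass (0.0526, 0.0943, 0.0848 and 0.0694). The same held with an array left out for 4 arrays in TGM2 (0.0567 to 0.0605), 10 in ANXA1 (0.0515 to 0.107), 7 in NEFM (0.0543 to 0.0728) and 10 in TCHP (0.0504 to 0.094). It held with the mean of probe sets for TGM2, ANXA1 and TCHP (0.0633, 0.0871 and 0.135), with equal array medians (0.0591) or hybridisation-control scaling (0.104) for ANXA1, and with quantile normalisation for TCHP (0.102).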

How the results depend on the processing

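SCEL, KRT20, KRT19, KRT15 and KRT80 kept their direction and passed at both times under all alternatives that gave a value. Over the 8 genes and their alternatives 123 of 127 values at 24 h and 119 of 127 at 48 h kept direction and side of the threshold. A signal under log2 4 limits SCEL and KRT20 with Aa.

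The replicate block raised the genes that passed to 4314 for the difference between effects, 1669 for the control times (from 71) and 4987 for the Aa times (from 3261). Of the 8 genes it gave 4 positive differences, and 1 up and 2 down between control times. Hybridisation-control scaling, which moved the median of all genes to -0.265 at 24 h and -0.468 at 48 h, put the upward share of calls at 29.9% and 23.2% (53.6% and 47.5% otherwise). It gave 1953 genes between control times (1 of the 8 up, 3 down), 6852 between Aa times (0 up, 1 down) and 0 positive differences among the 8. Between control times the count was 141 with a floor at log2 4 and with a variance trend, and 0 with limma on the 2 groups alone (1836 at an unadjusted p under 0.05). There 1 of the 8 was up with quantile normalisation, a filter at log2 5, the floor, the mean of probe sets or the trend, and the trend gave 1 down. Without the filter 1 difference was positive and 0 negative; the mean of probe sets gave 1 positive. Between Aa times 0 rose without the filter, with the mean of probe sets or with the 2 groups alone. With the mean of probe sets KRT7 was under the filter and not tested, so both counts for that setting leave it out.

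Leaving out each array gave 4816 to 5028 genes at 24 h, 6568 to 6871 at 48 h, 1241 to 2597 for the difference, 9 to 545 between control times and 2304 to 2955 between Aa times. Of the 8, 2 rose and 4 fell at 24 h, 3 to 4 rose and 3 fell at 48 h, 0 to 2 differences were positive and 0 to 1 negative, 0 to 1 rose and 0 to 1 fell between control times, and 0 to 1 rose and 0 fell between Aa times.

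Signs turned with hybridisation-control scaling for KRT7 (-0.18), EVPL (-0.0788), PRPH (-0.19), DSP (-0.13), KRT10 (-0.27), ANXA1 (-0.0944), S100A11 (-0.13), NES (-0.12), the envelope median (-0.126) and the filament median (-0.254) at 24 h, KRT18 (-0.40) and KRT10 (-0.25) at 48 h, the SYNM difference (-0.0707), KRT15 between control times (-0.29), and KRT8 (-0.18), KRT18 (-0.39), KRT15 (-0.19), KRT80 (-0.28) and SCEL (-0.22) between Aa times. They turned for KRT10 at 24 h with quantile normalisation (-0.00801), the filament median with a filter at log2 5 (-0.0397) or floor (-0.0198), the PKP2 difference with the floor (0.16) and the envelope median with the mean of probe sets (-0.114). Leaving out an array gave values of both signs at 24 h for the envelope median (-0.0567 to 0.13), the filament median (-0.0803 to 0.0714), KRT7 (-0.0336 to 0.33), EVPL (-0.0567 to 0.40), PRPH (-0.00934 to 0.15), KRT8 (-0.33 to 0.00287), KRT10 (-0.00503 to 0.0164) and DSP (-0.0594 to 0.40). At 48 h it did so for KRT18 (-0.0713 to 0.17). For the difference between effects it did so for KRT15 (-0.0378 to 0.45), LMNB1 (-0.17 to 0.0289), PKP2 (-0.34 to 0.41), SCEL (-0.58 to 1.65) and SYNM (-0.0902 to 0.23). Between control times it did so for KRT19 (-0.29 to 0.0442) and KRT15 (-0.00288 to 0.0693). Between Aa times it did so for KRT15 (-0.0151 to 0.47), KRT20 (-0.49 to 0.16) and SCEL (-1.06 to 1.17). The cause was not tested. KRT7 gave no tested change with the mean of probe sets, and the difference has no fit on 2 groups.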
